A study of Mus musculus with 4 samples.

Results

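Annexins and S100 proteins are calcium-binding proteins that meet at the inner face of cell membranes. Annexins bind acidic phospholipids when calcium rises, and small S100 proteins bind the tails of several annexins or of cytoskeletal proteins. The best known pair is Anxa2 with S100a10, which links the plasma membrane to the actin skeleton and to the scaffold protein Ahnak. In T cells several of these genes are known as part of the programme of effector and memory cells. The 10 genes described here, Anxa1, Anxa2, Anxa4, Anxa5, Anxa6, S100a4, S100a6, S100a10, S100a11 and S100a13, were taken by gene symbol as annexins and S100 genes of lymphocytes. All 10 were listed among the 11883 genes of the authors' deposited table.

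RNA was sequenced from T helper 2 (Th2) cells, the CD4 T cells of allergic inflammation, sorted from lung as live cells that carry CD4 and the interleukin-33 receptor T1/ST2. One genotype was Klrg1Cre Gata3(fl/fl), with 2 samples, in which Gata3 is floxed and a Cre recombinase named for Klrg1 is present. It was set against Gata3(fl/fl), with 2 samples, in which Gata3 is floxed without Cre. They are called Klrg1Cre and control here. All mice were C57BL/6 under chronic treatment with papain, a protease that provokes airway allergy, and floxed Gata3 was common to both genotypes. The headers of the table call its groups ILC2 deficient and WT, the first naming group 2 innate lymphoid cells, and these were taken as Klrg1Cre and control. No group carried Klrg1Cre without floxed Gata3, so an effect of Cre, of Gata3 loss and of a lack of ILC2 cannot be told apart. Whether the samples came from separate mice is not stated, so p-values measure the spread between samples, which may be technical.

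The table holds the mean of each genotype in CPM (reads scaled to the total of their library), with the authors' ratio and p-value, and no column for a single sample. The steps of the low means gave library totals of 26019065 and 14564426 reads in Klrg1Cre and 33379572 and 31961572 reads in control. With these totals the means of 8 members could be separated, each in 1 way, into whole reads of both libraries, and Anxa4 and Anxa6 could not. The sample behind each library is unknown, so within a genotype they are named by size, as larger and smaller. The precursor of ribosomal RNA, Rn45s, held 67.1% of Klrg1Cre reads and 51.4% of control reads in the authors' deposited table. Reads outside that table made up 14.7% in Klrg1Cre and 30.8% in control. The other listed genes held 18.2% in Klrg1Cre and 17.8% in control, and their ratios centred on a median of 0.0053 (log2).

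Most of the family had somewhat higher means in Klrg1Cre, led by Anxa2 and S100a11, but no member passed an adjusted p of 0.05. In the authors' deposited table, a total of 0 of 10 members passed it, where 0.0589% of all genes did (7 of 11883). At an unadjusted p below 0.05 the authors' deposited table held 3 members with higher means, Anxa2, S100a11 and Anxa6, and 0 with lower means. Over all genes of that table the shares were 3.72% higher and 3.37% lower. By direction alone 8 of 10 members had higher means, against 50.6% of all genes, and the exceptions were Anxa4 and S100a13. The median log2 ratio of the members was 0.18 by the authors' deposited table, 0.21 for the 5 annexins and 0.14 for the 5 S100 genes. Among the 8 members with separated libraries, 5 had both Klrg1Cre libraries above both control libraries (Anxa2, Anxa5, S100a4, S100a10 and S100a11) and 0 had both below. Of all 5351 genes separated in both genotypes, 19.3% were above and 18.3% below. The members were chosen with earlier results of these data known, so their counts beside these shares are a description and not a test.

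**Figure D1:**
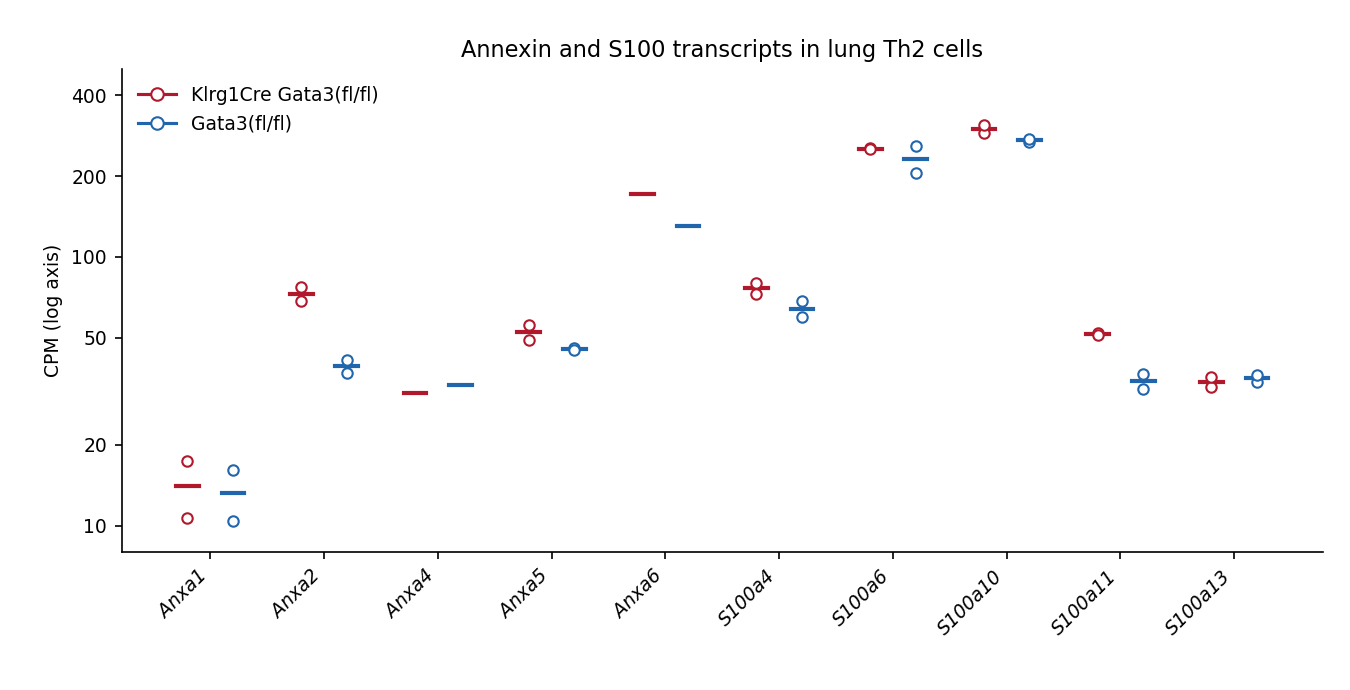
Level of each member in CPM on a log axis, with Klrg1Cre Gata3(fl/fl) in red left of Gata3(fl/fl) in blue; circles are single libraries and bars the deposited means of 2 libraries, and Anxa4 and Anxa6 have means only. For Anxa2 the Klrg1Cre libraries lie at 77.1 and 68.6 CPM, above the control libraries at 37.1 and 41.3 CPM, whereas for Anxa1 the libraries of both genotypes span the same range.

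Anxa2, which binds membranes through its annexin core and S100a10 through its tail, showed the largest difference of the 10. Its level was 77.1 CPM in the larger and 68.6 CPM in the smaller Klrg1Cre library, against 37.1 CPM in the larger and 41.3 CPM in the smaller control library. Both Klrg1Cre libraries lay above both control libraries, and the gap was wider than the spread within either genotype. The means were 72.8 ± 6.01 CPM in Klrg1Cre and 39.2 ± 2.93 CPM in control (SD, n = 2 libraries each). The ratio in the authors' deposited table was 1.86 with an unadjusted p of 9.7e-05 and an adjusted p of 0.0701, above the threshold. At an adjusted p below 0.10 Anxa2 would be the only member called, where 0.185% of all genes would be. An antisense gene, Gm16144, overlaps the Anxa2 gene by 2570 bases (GENCODE M21) and was not listed. Its part in the reads counted for Anxa2 was not tested. A limma fit over the 4242 genes with separated libraries and a mean of at least 1 CPM gave Anxa2 a difference of 0.88 ± 0.14 (SE) on the log2(CPM + 1) scale. Its 95% interval was 0.57 to 1.19 and its adjusted p 0.0506, where 0.165% of those genes passed 0.05. Without any 1 library the log2 ratio of Anxa2 lay between 0.81 and 0.98. The limma adjusted p of Anxa2 moved more: it was 0.00204 without the smaller and 0.0127 without the larger Klrg1Cre library, and with a control library left out it was 0.354 (larger) or 0.349 (smaller).

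S100a11, a partner of annexin tails, including that of Anxa1, had the second largest difference. Its libraries held 52.1 and 51.2 CPM in Klrg1Cre, against 32.4 and 36.8 CPM in control. The Klrg1Cre libraries were nearly equal and both lay above the control libraries. Means were 51.7 ± 0.633 CPM in Klrg1Cre and 34.6 ± 3.07 CPM in control (SD, n = 2 libraries each). The authors' deposited table gave a ratio of 1.49, an unadjusted p of 0.00208 and an adjusted p of 0.313. By limma the difference of S100a11 was 0.57 ± 0.14 (SE) on the log2(CPM + 1) scale, with a 95% interval of 0.26 to 0.88 and an adjusted p of 0.206. The mouse genome holds 2 processed pseudogenes, Gm12854 and Gm7665, that match 58.1% of the S100a11 transcript at 98.99% and 98.65% identity (GENCODE M21). Neither is listed in the table, and how reads shared with them were counted is not given in the sources used here, so the level of S100a11 is uncertain to that extent.

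The promoters of Anxa2 and S100a11 are shown because these members had the largest differences. Each window runs from 250 bases before to 50 bases after the start of the gene, 5′ to 3′, from RefSeq on build GRCm38.p6. The expression files were made on mm9 and give no coordinates. Anxa2 is on the plus strand at chr9:69453433-69453732 and S100a11 on the plus strand at chr3:93520246-93520545. Capitals mark matches to 5 motifs searched on both strands: the TATA box TATAAA, the GC box GGGCGG, the AP-1 motif TGANTCA, the STAT motif TTCNNNGAA, and the GATA motif, here the letters GATA with A or T before and A or G after them.
Anxa2: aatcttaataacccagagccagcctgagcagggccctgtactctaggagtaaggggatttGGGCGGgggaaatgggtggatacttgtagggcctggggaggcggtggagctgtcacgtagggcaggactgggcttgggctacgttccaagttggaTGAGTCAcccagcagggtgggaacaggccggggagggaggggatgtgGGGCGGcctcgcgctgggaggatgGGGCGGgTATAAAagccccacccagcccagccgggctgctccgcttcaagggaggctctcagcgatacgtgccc
S100a11: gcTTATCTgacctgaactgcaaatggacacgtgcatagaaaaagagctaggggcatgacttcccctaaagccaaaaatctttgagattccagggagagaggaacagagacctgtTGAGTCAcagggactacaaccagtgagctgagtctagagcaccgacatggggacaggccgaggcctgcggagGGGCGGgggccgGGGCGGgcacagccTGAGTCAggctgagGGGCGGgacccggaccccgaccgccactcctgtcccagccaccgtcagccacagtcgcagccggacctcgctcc
The Anxa2 window held GC boxes starting at -190, -48 and -24 from the start of the gene, the AP-1 motif TGAGTCA at -95 and a TATA box at -17. The S100a11 window held GC boxes at -64, -52 and -24, TGAGTCA at -136 and -38, and a GATA match on the minus strand, printed as TTATCT, at -248. No match overlapped another. Of the 9 windows found for 8 members, 2 held the AP-1 motif, those of Anxa2 and S100a11. Of all 32851 promoter windows of the same length, 7.81% held it. The GC box was in 3 member windows and in 35.7% of all, the TATA box in 3 and in 13.6%, the GATA motif in 2 and in 29.8%, and the STAT motif in 0 and in 8.30%. These matches are letters in a window, not sites shown to be bound. RefSeq windows were matched by symbol, and Anxa6 and S100a10 had none.

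**Figure D2:**
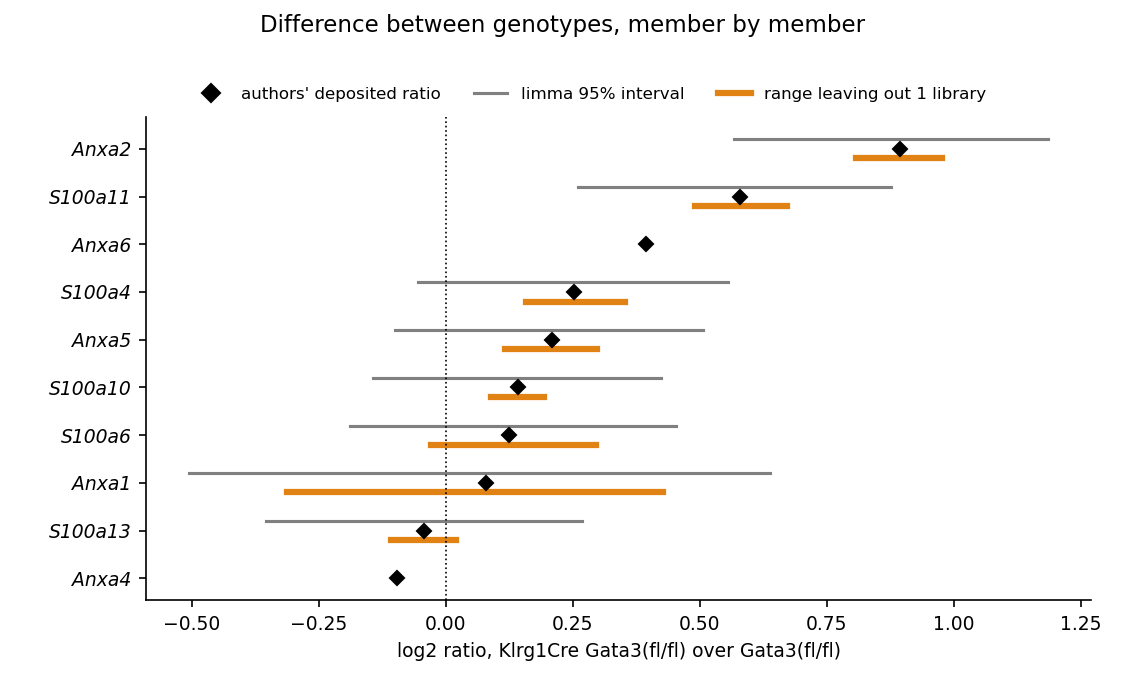
The log2 ratio of each member, Klrg1Cre Gata3(fl/fl) over Gata3(fl/fl), ordered by size; diamonds are the authors' deposited ratios, grey lines the limma 95% intervals on log2(CPM + 1), and orange lines the range of ratios when any 1 library is left out. The intervals of Anxa2 and S100a11 lie above 0, those of the other 6 members with separated libraries span 0, and Anxa4 and Anxa6 have a ratio only.

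S100a10, the partner of Anxa2, an S100 protein whose calcium-binding loops do not bind calcium, showed a small difference. It held 289.0 and 310.7 CPM in the Klrg1Cre libraries, against 268.3 and 275.4 CPM in the control libraries. The genotypes did not overlap, but the gap between their nearest libraries was smaller than that between the Klrg1Cre libraries. The authors' deposited table gave S100a10 a ratio of 1.10 with an unadjusted p of 0.272. By limma the 95% interval of the S100a10 difference was -0.14 to 0.42 on the log2(CPM + 1) scale, so a fold between 0.906 and 1.34 was within it. Whether the differences of Anxa2 and S100a10 are unequal was not tested.

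The partner list, proteins known to bind or act with annexins and S100 proteins, showed no common direction. Of 20 partner genes 13 were listed, 6 with higher and 7 with lower means in the authors' deposited table. None of the 13 passed an adjusted p of 0.05, 1 had a higher mean at an unadjusted p below 0.05 and 0 a lower one, and the median log2 ratio was -0.11. The one was Ahnak, the giant scaffold that Anxa2 and S100a10 hold at the membrane. Ahnak averaged 305.2 CPM in Klrg1Cre and 233.1 CPM in control in the authors' deposited table, 1.31-fold higher (p = 0.0461, adjusted p = 0.698). Receptors of secreted Anxa1, Fpr1, Fpr2 and Fpr3, and the plasminogen system genes Plg and Plat, whose proteins the Anxa2 complex binds at the cell surface, were not listed. Neither were Dysf and Dlc1.

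Anxa1, known for damping inflammation through formyl peptide receptors, varied more between libraries of 1 genotype than between genotypes. Its libraries held 17.4 and 10.7 CPM in Klrg1Cre, against 10.5 and 16.1 CPM in control. One library of each genotype was high and one low, so the genotypes overlapped fully. The authors' deposited table gave Anxa1 a ratio of 1.06 with an unadjusted p of 0.801, and the limma 95% interval was -0.50 to 0.64 on the log2(CPM + 1) scale. Leaving out any 1 library moved the log2 ratio of Anxa1 between -0.31 without the larger Klrg1Cre and 0.43 without the smaller control library.

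Anxa5, which binds phosphatidylserine and is used in labelled form to stain dying cells, held 55.9 and 49.3 CPM in Klrg1Cre, against 45.8 and 45.1 CPM in control. Both Klrg1Cre libraries were above both control libraries, and they differed from each other by about as much as the genotypes did. The ratio for Anxa5 in the authors' deposited table was 1.16 (p = 0.157), with a limma 95% interval of -0.10 to 0.51 on the log2(CPM + 1) scale. Anxa6, an annexin with a doubled membrane-binding core that acts at the plasma membrane and endosomes, has group means only. They were 171.5 CPM in Klrg1Cre and 130.5 CPM in control in the authors' deposited table, 1.31-fold higher, with an unadjusted p of 0.0170 and an adjusted p of 0.604. Anxa4, another membrane-binding annexin, averaged 31.2 CPM in Klrg1Cre and 33.4 CPM in control in the authors' deposited table, 1.07-fold lower (p = 0.528). The spread between libraries is not known for Anxa4 and Anxa6.

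S100a4, which binds the heavy chain of non-muscle myosin and is used as a marker of memory T cells, held 73.0 and 80.1 CPM in Klrg1Cre, against 59.9 and 68.6 CPM in control. The genotypes did not overlap, yet the lower Klrg1Cre library was close to the higher control library. The authors' deposited table gave S100a4 a ratio of 1.19 (p = 0.0902), and the limma 95% interval was -0.055 to 0.56 on the log2(CPM + 1) scale. A gene that overlaps it on the same strand, Gm42674, matches 60.6% of the S100a4 transcript at 100% identity. Reads within the matching part cannot be told apart, and Gm42674 was not listed. S100a6, or calcyclin, held 255.0 and 251.1 CPM in Klrg1Cre, against 206.0 and 258.2 CPM in control. Its Klrg1Cre libraries were nearly equal and lay between the control libraries, which were 1.25-fold apart. For S100a6 the ratio in the authors' deposited table was 1.09 (p = 0.363) and the limma 95% interval -0.19 to 0.45 on the log2(CPM + 1) scale. S100a13, known for helping the release of proteins that lack a signal peptide, held 32.9 and 35.9 CPM in Klrg1Cre, against 34.3 and 36.5 CPM in control. The libraries interleaved, with a ratio of 0.971 in the authors' deposited table (p = 0.765) and a limma 95% interval of -0.35 to 0.27 on the log2(CPM + 1) scale.

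**Figure D3:**
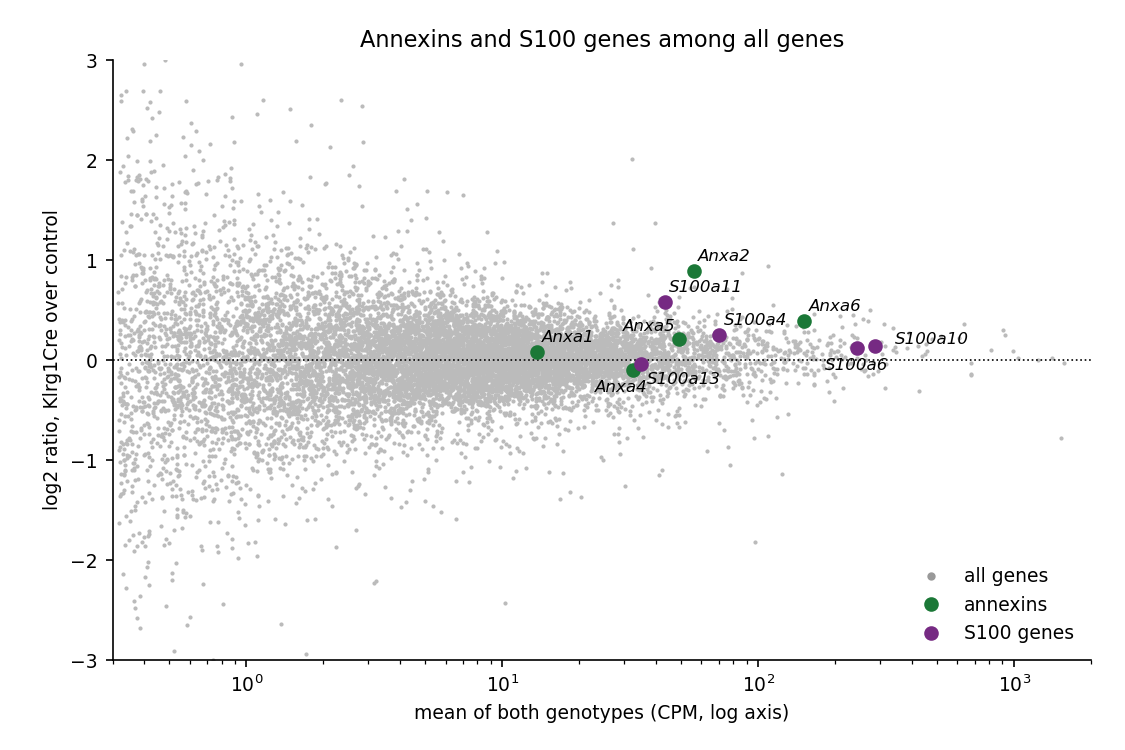
Each grey point is a gene, with the mean of both genotypes in CPM on a log axis and the log2 ratio of Klrg1Cre over control on the vertical axis; annexin members are green, S100 members purple, and genes beyond the axes are not drawn. Among the members Anxa2 is highest at 0.89 and S100a11 next at 0.58, and the other members lie between -0.097 and 0.39.

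Levels can be compared between genes only per length of transcript, here CPM per kilobase of the longest principal transcript in GENCODE M21. On that scale S100a10 was highest, at 437.7 in Klrg1Cre and 396.8 in control. S100a6 followed at 346.1 in Klrg1Cre and 317.6 in control, and S100a4 at 153.7 in Klrg1Cre and 129.0 in control. S100a11 had 101.1 CPM per kilobase in Klrg1Cre and 67.7 in control. Neighbours in this order of 4 S100 genes had libraries that did not overlap in either genotype. Next came Anxa6 at 68.9 CPM per kilobase in Klrg1Cre and 52.4 in control. Anxa2, at 50.3 CPM per kilobase in Klrg1Cre and 27.1 in control, changed places with S100a13, at 48.1 in Klrg1Cre and 49.5 in control. The libraries of Anxa2 and S100a13 overlapped in Klrg1Cre and were apart in control, where those of Anxa2 overlapped with those of Anxa5 instead. Anxa5 had 30.4 CPM per kilobase in Klrg1Cre and 26.3 in control, and Anxa4 15.4 in Klrg1Cre and 16.4 in control. Anxa1 was lowest at 8.40 CPM per kilobase in Klrg1Cre and 7.95 in control. Together the 5 S100 members summed to 715.5 CPM in Klrg1Cre and 638.2 CPM in control, and the 5 annexins to 342.2 CPM in Klrg1Cre and 261.8 CPM in control, by the authors' deposited table.

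The S100 members lie on mouse chromosome 3 in the S100 cluster, as does Anxa5 elsewhere on that chromosome, and the other annexins are spread over chromosomes 19 (Anxa1), 9 (Anxa2), 6 (Anxa4) and 11 (Anxa6). Log2 ratios of neighbouring genes are given here side by side, and differences between them were not tested. S100a11 and S100a10, next to each other in RefSeq order among S100 genes, had log2 ratios of 0.58 (S100a11) and 0.14 (S100a10) in the authors' deposited table, and S100a4 and S100a6, with the unlisted S100a5 between them, 0.25 and 0.12. The adjacent S100a8 and S100a9 had 0.29 and 1.55 there. S100a1 and S100a13, which overlap by 98 bases in RefSeq, had log2 ratios of 0.82 and -0.042 in that table, and reads of the overlap are uncertain.

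Of 18 other annexins and S100 genes 7 were listed, 5 with higher and 2 with lower means in the authors' deposited table. None of the 7 passed an adjusted p of 0.05, 1 had a higher mean at an unadjusted p below 0.05 and 0 a lower one, with a median log2 ratio of 0.29. That gene was S100a1, best known from heart and skeletal muscle, with 7.53 and 5.42 CPM in the Klrg1Cre libraries, against 4.10 and 3.25 CPM in the control libraries. The genotypes of S100a1 did not overlap, on 196 and 79 reads in the Klrg1Cre libraries and 137 and 104 in the control libraries. The authors' deposited table gave S100a1 a ratio of 1.76 (p = 0.0181, adjusted p = 0.606). Anxa3, Anxa7 and Anxa11 had means of 1.72, 16.7 and 10.1 CPM in Klrg1Cre, against 0.977, 14.7 and 10.4 CPM in control, in the authors' deposited table. S100a3 was at 1 and 4 reads in the Klrg1Cre libraries and at 5 and 18 reads in the control libraries. Anxa8, Anxa9, Anxa10, Anxa13, S100a5, S100a7a, S100a14, S100a16, S100b, S100g and S100z were not listed.

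**Figure D4:**
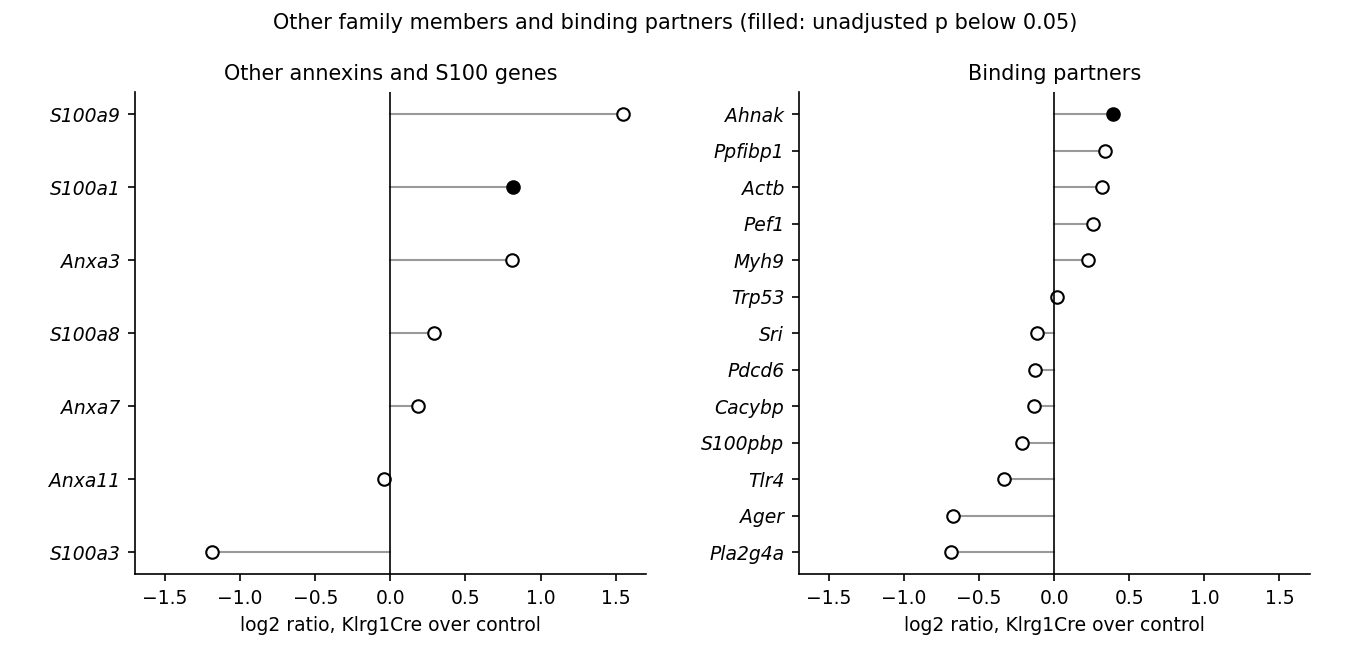
Log2 ratio of Klrg1Cre over control in the authors' deposited table for the 7 listed annexins and S100 genes that are not members (left) and the 13 listed binding partners (right); filled circles have an unadjusted p below 0.05 and open circles do not. The filled genes are S100a1 at 0.82 and Ahnak at 0.39, and the genes farthest from 0, S100a9 at 1.55 and S100a3 at -1.19, have low means.

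Annexins and S100 genes are also expressed by macrophages, neutrophils and epithelium, whose RNA a sorted fraction can carry, and in bulk RNA fewer cells of a type and less RNA per cell cannot be told apart. Of 9 T cell markers 8 were listed, summing to 1067 CPM in Klrg1Cre and to 1072 CPM in control, and 0 had an adjusted or unadjusted p below 0.05 in the authors' deposited table. The most abundant was Lck, at 243.1 CPM in Klrg1Cre and 259.3 CPM in control there. All 12 macrophage and monocyte markers were listed, summing to 1914 CPM in Klrg1Cre and 2712 CPM in control in the authors' deposited table, with 0 past an adjusted p of 0.05. Chil3, a chitinase-like protein made by macrophages in type 2 inflammation, made up most of that sum, with 1124 CPM in Klrg1Cre and 1932 CPM in control (p = 0.0165, adjusted p = 0.599 in the authors' deposited table). The 12 markers showed no common direction, with 6 higher and 6 lower means in Klrg1Cre and a median log2 ratio of -0.030. Marco, a scavenger receptor of alveolar macrophages, was at 0 reads in both control libraries and at 14 and 1 reads in the Klrg1Cre libraries. The 6 macrophage markers with separated libraries summed to 76.4 and 49.2 CPM in Klrg1Cre, against 67.9 and 66.8 CPM in control. That sum leaves out Chil3, Lyz2, Cd68, Ctss, Adgre1 and Itgam, whose libraries could not be separated in both genotypes. For Anxa1 the high libraries were the larger Klrg1Cre and the smaller control one, and Tyrobp and Fcer1g, signalling adaptors of myeloid cells singled out after their values were seen, were also highest there. Tyrobp had 18.8 and 12.9 CPM in the larger and smaller Klrg1Cre libraries, against 11.1 and 15.4 CPM in the larger and smaller control libraries, and Fcer1g had 26.1 and 13.7 CPM in those of Klrg1Cre, against 16.8 and 21.8 CPM in those of control. The part of macrophage RNA in the levels of Anxa1, Anxa2 and S100a11 was not tested.

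Markers of other cells were low. The 4 listed of 6 neutrophil markers summed to 10.1 CPM in Klrg1Cre and 6.72 CPM in control in the authors' deposited table. They include the S100 genes S100a8, at 2.89 CPM in Klrg1Cre and 2.36 CPM in control, and S100a9, at 2.46 CPM in Klrg1Cre and 0.841 CPM in control, and the defining markers Ly6g and Cxcr2 were not listed. The most abundant of that list was Csf3r, at 4.37 CPM in Klrg1Cre and 3.10 CPM in control by the same table of the authors. Sums in the authors' deposited table were 16.02 CPM in Klrg1Cre and 15.96 CPM in control for 5 of 6 epithelial markers, led by Cdh1, and 4.80 CPM in Klrg1Cre and 6.56 CPM in control for 2 of 4 eosinophil markers, led by Ccr3. For 3 of 3 B cell markers, led by Cd79a, they were 0.609 CPM in Klrg1Cre and 0.946 CPM in control, and Ms4a1 was at 0 reads in both Klrg1Cre libraries. Of 5 fibroblast markers only Col1a1 was listed, at 0.537 CPM in Klrg1Cre and 0.150 CPM in control in the authors' deposited table. Of 4 endothelial markers only Pecam1, which leukocytes also express, was listed, at 17.7 CPM in Klrg1Cre and 12.1 CPM in control. In these lists 0 genes passed an adjusted p of 0.05, and 4 had an unadjusted p below 0.05 in the authors' deposited table. Epcam averaged 0.921 CPM in Klrg1Cre and 2.78 CPM in control (p = 0.0300), and Ccr3 2.89 CPM in Klrg1Cre and 5.58 CPM in control (p = 0.0165), by that table of the authors. The authors' deposited table gave higher means for Scgb1a1, at 4.23 CPM in Klrg1Cre and 2.57 CPM in control (p = 0.0435), and for Pecam1 (p = 0.0195).

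**Figure D5:**
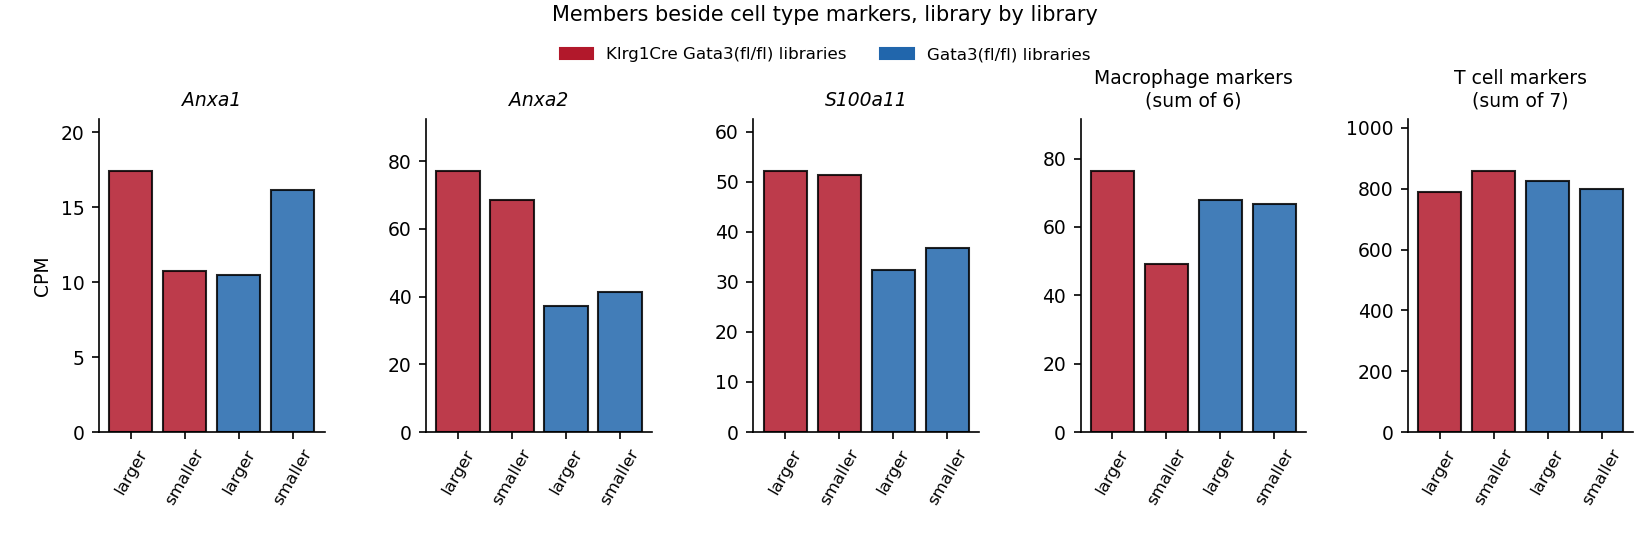
Bars give CPM in each library, the larger and smaller Klrg1Cre Gata3(fl/fl) libraries in red left of the larger and smaller Gata3(fl/fl) libraries in blue, for Anxa1, Anxa2 and S100a11 and for the sums of 6 macrophage and 7 T cell markers with separated libraries. Anxa1 is high in 1 library of each genotype, Anxa2 and S100a11 are high in both Klrg1Cre libraries, and the macrophage sum is lowest in the smaller Klrg1Cre library at 49.2 CPM.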

How the data were processed

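RNA-seq of 4 sorted lung Th2 samples, 2 per genotype, was used. Per the submitters' processing notes the tools were STAR and Partek and the build mm9, without versions. The authors deposited 1 table of group means in CPM, a ratio (also as a signed fold score), p-values and adjusted p-values from a model not given in the sources used here, and a signal column of totals, which was not used. The authors' adjusted p was recomputed as Benjamini-Hochberg over all 11883 genes, with the same values. Each deposited mean carries an added 0.0001 CPM.

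Calls rest on the authors' adjusted p, because group means carry no spread. Means below 20000 CPM were separated into whole reads of 2 libraries (tolerance 1e-09 reads), for 49.0% of genes in Klrg1Cre and 47.0% in control. Because so few were separated, no count model was run. Intervals come from limma 3.58.1 (R 4.3.3, trended variance) on log2(CPM + 1), with Benjamini-Hochberg adjustment over 4242 genes. Separation and limma were tested on simulated data. Near-identical transcripts (at least 95% identity over 50% of the transcript) were sought with blastn 2.17.0 in GENCODE M21.

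The members and lists were chosen with earlier results of these data known, so no list was tested. Other annexins, S100 genes and binding partners were to be named where their unadjusted p was below 0.05, and of each marker list the most abundant gene and any past an adjusted p of 0.05. Further relatives, partners and markers are named outside this rule, after their values were seen. Of the 4 samples none was left out. Alternatives covered the threshold, filter, pseudocount, scaling and libraries.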

Additional observations from a re-analysis of the deposited data

How the results depend on the processing

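All 10 members kept the direction of their log2 ratio with a pseudocount of 1 CPM, when scaled to the listed genes without Rn45s (a shift of -0.026), and when scaled to the median of all genes. Leaving out 1 library at a time, 3 of 8 members took both signs (Anxa1, S100a6 and S100a13). The count of members past an adjusted p was 0, and 1 (Anxa2) at a threshold of 0.10. It stayed 0 when adjusted over the 9806 genes averaging 1 CPM or more, where Anxa2 had 0.0578. With limma the count was 0, 1 with log2(CPM + 5) and 1 with no filter on the mean. It was 0 to 1 leaving out 1 library, a set of fits added after seeing the data, in which the lone library is assumed to vary like the other genotype. Over all genes these fits called between 0 and 64, against 7 with all libraries. The cause of these changes was not tested. The median log2 ratio of the 8 separated members was 0.18, and 0.14 to 0.32 leaving out 1 library, the highest without the smaller control library. For the other annexins and S100 genes the median was 0.29, and 0.55 over those averaging 1 CPM or more, since that filter drops S100a3. The median of the binding partners was -0.11, and 0.021 over those averaging 1 CPM or more. No paired analysis was possible because the columns carry no replicate numbers. With 2 libraries a genotype, a p that misses the threshold does not show equal levels.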
